A study of Mus musculus with 28 samples.

Results

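The RNA levels of 9 genes of the tubulin family are described here: the α-tubulin genes Tuba1a, Tuba1b, Tuba3a, Tuba3b and Tuba8 and the β-tubulin genes Tubb3, Tubb4b, Tubb5 and Tubb6. They were chosen by name from the 37122 genes in the table, and each gene's value is the sum over its listed transcripts. All 9 had a value in each of the 28 libraries. Counting 1 coding transcript per gene, Tuba3a and Tuba3b together held 92.7% to 99.5% of α-tubulin RPKM in sorted spermatocytes and 83.3% to 97.6% in spermatids. Counted so, Tubb4b held at least 95.1% of β-tubulin RPKM in both. Tuba1a, Tuba1b and Tubb5, which in the ovary were more than 2-fold above every testis, were lower in spermatids than in spermatogonia. Tuba8 was under 0.2 RPKM in all 11 libraries of the 4 mice with little late spermatid RNA in whole testis or sorted spermatids. It was at 1.03 RPKM or more in the 16 other testis libraries, whatever their genotype.

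Microtubules are hollow polymers of αβ-tubulin dimers, and a mammal builds them from several α and β isotypes, each encoded by its own gene. Isotypes are most alike in the body of the protein and differ most in the acidic tail at its end, where enzymes add or remove tyrosine, glutamate and glycine. In the male germ line microtubules form the meiotic spindles, the manchette that shapes the spermatid head and the axoneme of the sperm tail. Tuba3a and Tuba3b are α isotypes known from the testis, Tubb4b is a widely expressed β isotype found in cilia and flagella, Tuba1a and Tuba1b are the common α isotypes of somatic cells, Tubb5 is a common β isotype of dividing cells and Tubb3 is best known from neurons.

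The libraries came from mice with a constitutive deletion at Csmd1, a complement regulatory gene, and from wildtype mice. The knockout replaces exon 1 and part of intron 1 of Csmd1 with a lacZ and neomycin cassette, per the study's methods, which give a mixed 129SvEvBrd and C57BL/6 background where the sample labels give C57BL/6. One testis of an animal was used whole and the other was sorted by flow cytometry into spermatogonia (gate R5), primary spermatocytes (R7), secondary spermatocytes (R6) and spermatids (R4). Males used for sorting were near 40 days of age per the methods. Whole testes were of immature (20 days) or mature (40 days) males per the study's text, and the labels give no age for any library. Whole testes 178, 648 and 286 came from sorted mice, which the methods put near 40 days. The age of whole testes 214, 269, 273 and 308 is unknown here. The 20 sorted libraries came from 8 mice, with wildtype mice 178, 648 and 351 and knockout mice 286, 544, 550, 613 and 614. Each group held 2 to 4 libraries. The 7 whole testes were 2 wildtype (178 and 648) and 5 labelled knockout (214, 269, 273, 286 and 308), and the single ovary was from wildtype mouse 86.

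Depth and composition differed between libraries. In 27 libraries the values stepped by whole reads, which gave 23786880 to 61611141 mapped reads per library. The primary spermatocyte library of mouse 613 showed no such step, so its depth is unknown, and 12787 transcripts had no value there. The other libraries fell into 3 sets with 865, 1411 or 2828 transcripts without a value, the last holding mice 648 and 614. RPKM of Csmd1 counts reads over all of its exons, most of them outside the deleted part, and so does not check the genotype labels. It was 0.033 to 1.66 in the 9 wildtype sorted libraries and 0.049 to 6.33 in the 11 labelled knockout, which are therefore called by their label. The late spermatid genes (Prm1, Prm2, Tnp1, Tnp2, Odf1 and Smcp) summed to 8051 to 8671 RPKM in the spermatid gates of mice 178, 351 and 544, but to 608 and 524 RPKM in those of mice 648 and 286. Whole testes 648, 269, 286 and 308 held 8.91 to 155 RPKM of these genes, against 6082 to 12125 RPKM in testes 178, 214 and 273. The library of mouse 544 labelled spermatogonia held 12398 RPKM, more than any spermatid library, while keeping 6 of the 6 spermatogonial genes at 1 RPKM or more. Somatic RNA was found in all gates. The peritubular and stromal list (Acta2, Myh11, Col1a1, Col1a2, Dcn and Pdgfra) summed to 30.7 to 819 RPKM in the spermatogonia gate and 2.68 to 28.2 RPKM in the spermatid gate, but the highest sorted Sertoli sum, 736 RPKM, was in the secondary spermatocytes of mouse 286 and the highest endothelial and blood sum, 24.8 RPKM, in the primary spermatocytes of mouse 613. In bulk libraries fewer cells of a type and less RNA per cell cannot be told apart.

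The genes differ in how well reads can be assigned to them. Coding sequences of Tuba1a and Tuba1b were 98.3% identical, those of Tuba3a and Tuba3b 97.0%, and the closest β pair among the members, Tubb3 and Tubb6, 85.7%. Of all stretches of 100 bases, close to the length of a read, in the transcript of Tuba1b, 73.0% also occurred in a transcript of another gene, most often of Tuba1c, and the share was 65.8% for Tuba1a. It was 12.3% for Tuba3a, 11.8% for Tuba3b and 30.6% for Tubb4b, where the pseudogene Tubb4b-ps1 led, and 0% for Tubb3, Tubb5 and Tubb6. For Tuba8 it was 12.5%, in gene model Gm15856 and in no other tubulin. The split between Tuba1a, Tuba1b and Tuba1c is thus the least certain of these levels. Tuba1b, Tubb4b and Tubb5 have 2, 2 and 4 listed transcripts, some of them retained introns, and the longest coding transcript held 38.3% to 99.8%, 65.0% to 99.7% and 18.9% to 36.4% of the gene's sum.

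The 60 coding bases before the stop codon hold the tail that sets the isotypes apart, and are shown for 6 of the members, read from GENCODE M21 transcripts on mouse build GRCm38. In the α genes the capitals mark the last sense codon, which in most α-tubulins encodes the tyrosine that is removed and added back.
Tuba3a: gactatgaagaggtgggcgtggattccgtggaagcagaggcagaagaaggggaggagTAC
Tuba3b: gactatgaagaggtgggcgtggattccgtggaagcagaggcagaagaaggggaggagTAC
Tuba8: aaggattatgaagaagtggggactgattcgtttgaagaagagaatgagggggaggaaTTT
The codon is TAC, for tyrosine, in Tuba3a and Tuba3b and TTT, for phenylalanine, in Tuba8. Tuba3a and Tuba3b were identical over these 60 bases, so the choice between them does not change this tail. In the β genes the capitals mark the GAA and GAG codons, which encode glutamate, the residue that carries polyglutamylation and polyglycylation.
Tubb3: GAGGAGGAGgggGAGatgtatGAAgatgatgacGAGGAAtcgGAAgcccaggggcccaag
Tubb4b: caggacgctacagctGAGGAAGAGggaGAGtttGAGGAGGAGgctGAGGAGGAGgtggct
Tubb5: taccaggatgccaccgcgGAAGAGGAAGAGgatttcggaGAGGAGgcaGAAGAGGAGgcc
Of the last 20 codons 10 were GAA or GAG in Tubb4b, 9 in Tubb5 and 8 in Tubb3.

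Tuba3a and Tuba3b reached their highest levels in primary spermatocytes. Tuba3a (minus strand, chr6:125278274-125286042 in GRCm38) was at 171 and 79.6 RPKM in wildtype spermatogonia of mice 178 and 648 and at 169 and 651 RPKM in labelled knockout spermatogonia of mice 286 and 544. In wildtype primary spermatocytes it was at 1077 and 286 RPKM, and in the labelled knockout libraries of mice 544, 550, 613 and 614 at 1441, 1629, 1205 and 661 RPKM. Only the spermatocytes of mouse 648 fell within the range of the spermatogonia, and within each of the 3 mice with both gates the spermatocyte library was the higher one. The difference was 1.81 ± 0.47 on the log2(RPKM + 0.1) scale (limma on quantile-normalized values, SE, adjusted p = 0.00895). Tuba3b (plus strand, chr6:145615757-145621479) moved from 128, 29.8, 80.7 and 546 RPKM in the same spermatogonia to 1120, 159, 1626, 1519, 1041 and 684 RPKM in primary spermatocytes, a difference of 2.50 ± 0.67 (adjusted p = 0.0105). Here too the higher library of each of the 3 mice was the spermatocyte one, by 1.58 to 3.13 on the log2 scale, and mouse 648 held the lowest value of either gate. Neither gene was called without mouse 286 (1.57, adjusted p = 0.0688, and 2.04, adjusted p = 0.0845) or in wildtype libraries alone (1.67, adjusted p = 0.186, and 2.35, adjusted p = 0.204).

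**Figure D1:**
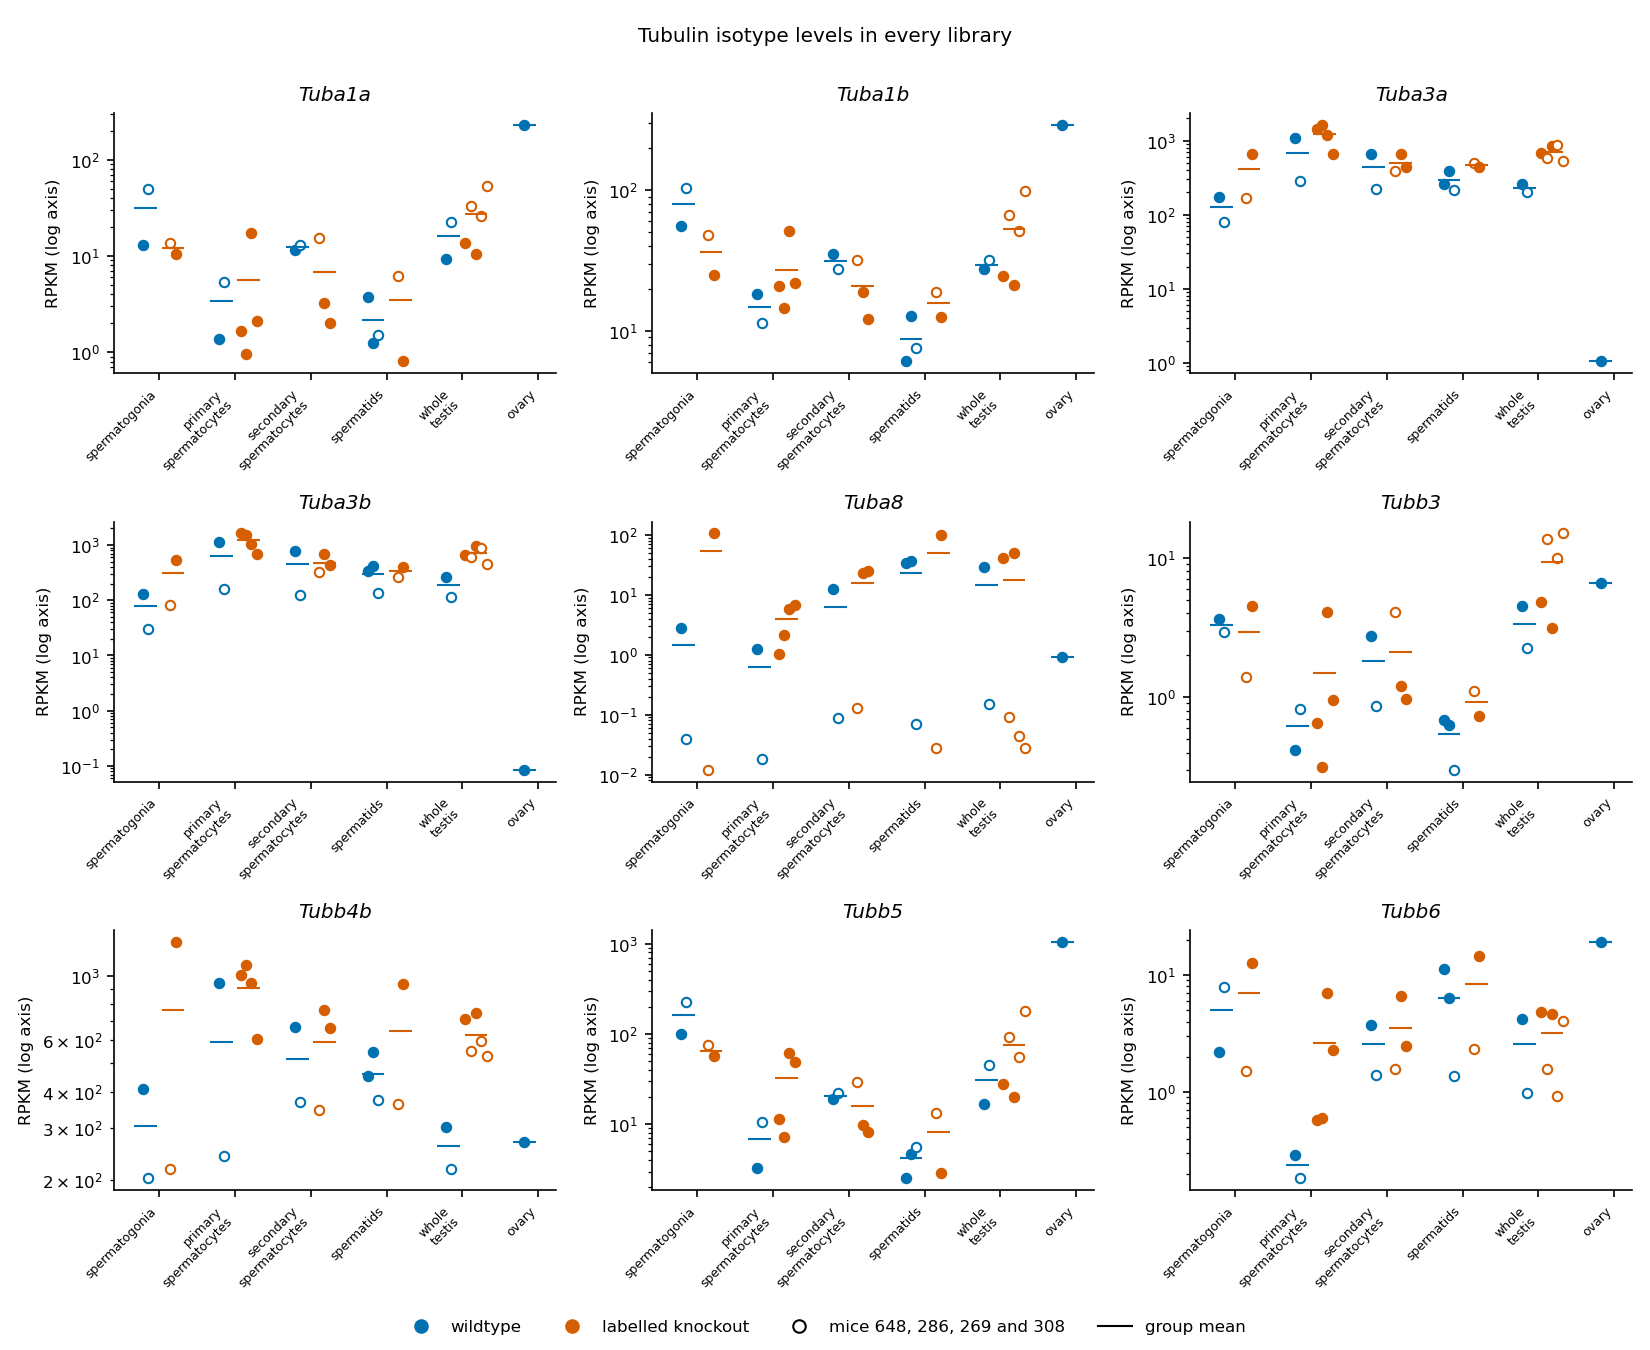
RPKM (log axis) of each member in each of the 28 libraries by stage, whole testis and ovary. Blue points are wildtype, orange points labelled knockout, open points the mice with little late spermatid RNA in testis or spermatid gate (648, 286, 269 and 308), and bars the group means. Tuba3a and Tuba3b peak in primary spermatocytes and are near the bottom of the axis in the ovary; Tuba8 lies below 0.2 RPKM in every library of the open points.

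After the primary spermatocyte both genes were lower in each of the 4 mice with both spermatocyte gates, by 0.35 to 1.88 for Tuba3a and 0.35 to 1.82 for Tuba3b on the log2 scale, yet neither passed the test (−0.87 ± 0.45 with adjusted p = 0.271, and −0.86 ± 0.64 with adjusted p = 0.453). Tuba3a stood at 225 to 655 RPKM in secondary spermatocytes and 218 to 501 RPKM in spermatids. Tuba3b stood at 125 to 778 RPKM and then at 135 to 413 RPKM. The order of the mean levels was primary spermatocytes, secondary spermatocytes, spermatids and spermatogonia for both genes, and the ranges of neighbours in this order overlapped.

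Tuba3b and Tuba3a were not in a fixed proportion. The ratio of Tuba3b to Tuba3a was 0.37 to 0.62 in the 5 libraries of mouse 648 and 0.75 to 1.31 in the 5 of mouse 178. In mouse 286 it was 0.48 in spermatogonia and 0.53 in spermatids but 0.84 in secondary spermatocytes and 1.03 in the whole testis. Mouse 544 lay between 0.84 and 1.13. The levels followed each other across the 20 sorted libraries (Pearson r = 0.96 on normalized log2 values, a description over libraries that share mice).

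The promoters of both are shown because the genes moved together; each window runs from 250 bases before to 50 bases after the RefSeq start (GRCm38.p6), with matches to the motifs searched on both strands in capitals.
Tuba3a (chr6:125286032-125286331, minus strand): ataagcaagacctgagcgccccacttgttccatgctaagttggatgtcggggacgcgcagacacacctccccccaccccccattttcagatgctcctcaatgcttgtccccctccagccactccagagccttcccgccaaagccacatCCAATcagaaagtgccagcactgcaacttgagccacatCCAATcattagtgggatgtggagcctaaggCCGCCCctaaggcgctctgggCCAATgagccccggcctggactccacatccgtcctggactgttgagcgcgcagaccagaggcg
Tuba3b (chr6:145615713-145616012, plus strand): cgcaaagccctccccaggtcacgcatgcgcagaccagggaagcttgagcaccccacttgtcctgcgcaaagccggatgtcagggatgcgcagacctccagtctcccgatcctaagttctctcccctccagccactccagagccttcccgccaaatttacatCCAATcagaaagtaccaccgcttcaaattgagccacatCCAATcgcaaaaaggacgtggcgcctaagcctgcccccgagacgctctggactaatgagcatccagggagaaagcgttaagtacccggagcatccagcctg
The best local alignment of the windows covered 234 columns at 73.5% identity. CCAAT occurred 3 times in Tuba3a and 2 times in Tuba3b, and in 37.4% of the 32851 mouse promoter windows of this length. GGGCGG occurred once in Tuba3a, as CCGCCC on the printed strand, and not in Tuba3b, against 35.7% of windows. TATAAA (13.6% of windows), TGACGTCA (1.79%) and GTTGCC (12.5%) were in neither. These are matches of letters and not sites of binding.

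Tubb4b (minus strand, chr2:25222160-25224702), the dominant β gene, varied little between stages relative to its spread. It was at 409, 202, 217 and 1305 RPKM in spermatogonia of mice 178, 648, 286 and 544. In primary spermatocytes it was at 940 and 240 RPKM in wildtype mice 178 and 648 and at 606 to 1084 RPKM in the 4 labelled knockout libraries. Secondary spermatocytes held 347 to 764 RPKM and spermatids 363 to 932 RPKM. The ranges of all 4 stages overlapped, and the differences from spermatogonia were 0.48 ± 0.49 in primary spermatocytes (adjusted p = 0.499) and 0.05 ± 0.50 in spermatids (adjusted p = 0.943). Mouse 544 was the highest of its gate in spermatogonia, secondary spermatocytes and spermatids.

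As shares of their families, counting 1 coding transcript per gene, these 3 genes stood far above the rest in spermatocytes and spermatids. The counted transcript held 18.9% to 36.4% of the Tubb5 sum and 65.0% to 99.7% of the Tubb4b sum. For Tuba1b it held 38.3% to 99.8%, with a median of 55.5%. The shares thus undercount Tubb5 and Tuba1b, and by gene sums Tuba3a with Tuba3b would hold less of α-tubulin RPKM. By gene sums, spermatogonia of mouse 648 held more Tubb5 (226 RPKM) than Tubb4b (202 RPKM). They also held more Tuba1b (103 RPKM) than Tuba3a (79.6 RPKM) or Tuba3b (29.8 RPKM). Tuba3a and Tuba3b together held 96.5% to 99.5% of α-tubulin RPKM in primary spermatocytes, 92.7% to 96.0% in secondary spermatocytes and 83.3% to 97.6% in spermatids. In spermatogonia they held 51.4% to 84.5%, the lowest share being that of mouse 648. Tubb4b held 96.9% to 99.8% of β-tubulin RPKM in primary spermatocytes, 95.1% to 98.7% in secondary spermatocytes, 96.4% to 98.8% in spermatids and 68.6% to 97.1% in spermatogonia. In the ovary Tuba3a and Tuba3b held 0.28% and Tubb4b 33.9%, with Tubb5 at 56.7% and Tuba1a, Tuba1b and Tuba1c at 98.6%. Summed α-tubulin RPKM was 458 to 3164 in primary spermatocytes and 213 to 1416 in spermatogonia, and summed β-tubulin RPKM 225 to 1013 and 233 to 1258.

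**Figure D2:**
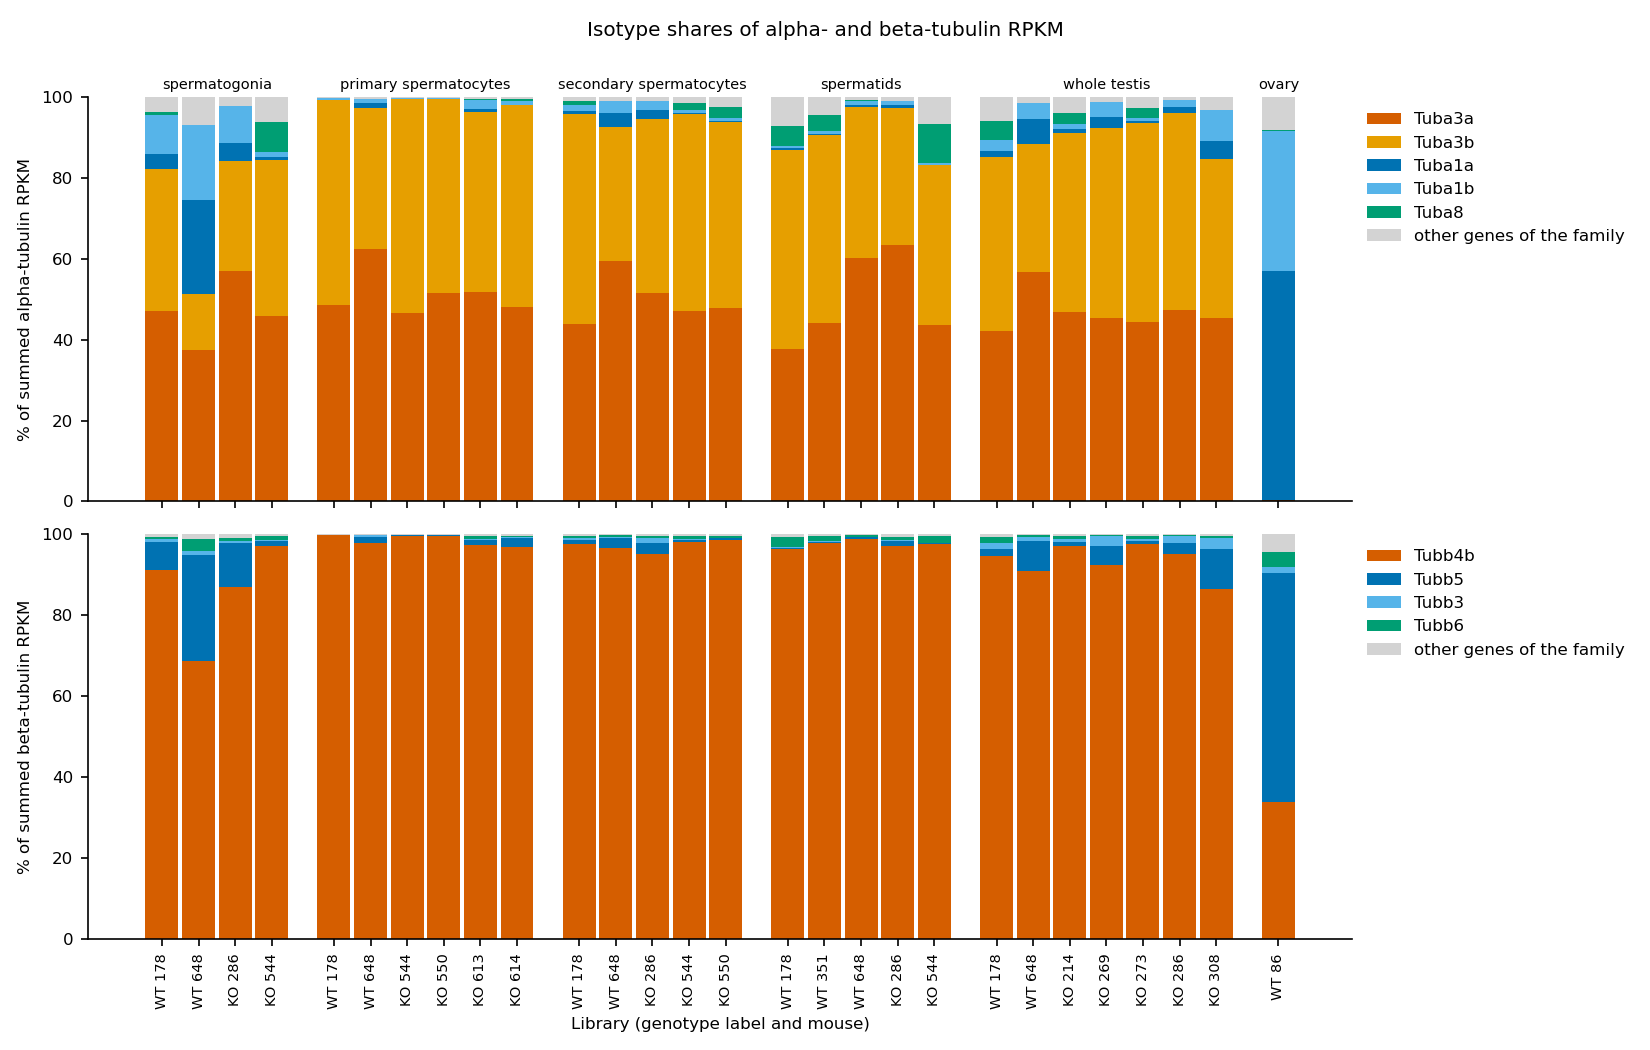
Share of summed α-tubulin (top) and β-tubulin RPKM (bottom) held by each member in each library, in percent, using 1 coding transcript per gene; grey is the rest of the family. Tuba3a with Tuba3b and Tubb4b fill the bars of primary spermatocytes (at least 96.5% and 96.9%), and Tuba1a, Tuba1b and Tubb5 fill most of the ovary.

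Tubb5 (minus strand, chr17:35833921-35838306) fell most. It was at 99.9 and 226 RPKM in wildtype and 74.7 and 56.3 RPKM in labelled knockout spermatogonia. Primary spermatocytes held 3.27 and 10.5 RPKM in wildtype mice 178 and 648 and 11.5, 7.28, 61.0 and 48.9 RPKM in mice 544, 550, 613 and 614, so that only the library of mouse 613 reached the spermatogonial range. Spermatids held 2.52, 4.65 and 5.67 RPKM in wildtype mice 178, 351 and 648 and 13.5 and 2.92 RPKM in mice 286 and 544, all below every spermatogonial library. The log2 difference from spermatogonia was −2.94 ± 0.74 in primary spermatocytes (adjusted p = 0.00734) and −4.11 ± 0.76 in spermatids (adjusted p = 0.000648). The first was not called without mouse 648 (−2.998, adjusted p = 0.0687), without mouse 178 (−2.84, adjusted p = 0.0692) or without mice 648 and 286 (−2.72, adjusted p = 0.14).

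Tuba1a (minus strand, chr15:98949837-98953703) was at 13.1 and 49.1 RPKM in wildtype and 13.5 and 10.4 RPKM in labelled knockout spermatogonia, and at 3.79, 1.25 and 1.52 RPKM in wildtype and 6.20 and 0.806 RPKM in labelled knockout spermatids. No spermatid library reached the spermatogonial range, and the difference was −2.46 ± 0.84 (adjusted p = 0.0242). Primary spermatocytes held 0.961 to 5.42 RPKM in 5 libraries and 17.5 RPKM in that of mouse 613, and the difference from spermatogonia of −2.02 ± 0.82 did not pass (adjusted p = 0.0694). Secondary spermatocytes, at 2.03 to 15.2 RPKM, were above the primary ones of the same animal in each of 4 mice and below the spermatogonia and above the spermatids in the order of means. Tuba1b (minus strand, chr15:98931425-98934565) was at 24.9 to 103 RPKM in spermatogonia, 11.4 to 51.0 RPKM in primary spermatocytes, 12.1 to 35.3 RPKM in secondary spermatocytes and 6.08 to 18.9 RPKM in spermatids. Its spermatids were below its spermatogonia in each library, by −2.01 ± 0.54 in the fit (adjusted p = 0.00670), while the primary spermatocyte difference of −1.37 ± 0.52 did not pass (adjusted p = 0.0564).

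Both genes were lower in spermatids than in spermatogonia in each of the 4 mice with both gates, and without any 1 mouse the differences ran from −3.20 to −1.85 for Tuba1a and −2.45 to −1.66 for Tuba1b. The calls, but not the direction, depended on single mice. Without mouse 648 the differences were −1.85 (adjusted p = 0.1799) and −1.72 (adjusted p = 0.0759). Without mouse 286 that of Tuba1b was −1.66 (adjusted p = 0.0698), and without mouse 544 that of Tuba1a was −2.06 (adjusted p = 0.138). Without mice 648 and 286 they were −2.26 (adjusted p = 0.166) and −1.38 (adjusted p = 0.241), and that of Tubb5 was −4.03 (adjusted p = 0.0395). With the mouse as a random block Tuba1a was at −2.41 ± 0.62 (adjusted p = 0.00324) and Tuba1b at −2.08 ± 0.41 (adjusted p = 0.000432). Somatic RNA moved in the same direction as these genes: the Sertoli list (Sox9, Wt1, Clu, Cldn11, Rhox5 and Fshr) summed to 368 to 659 RPKM in the 4 spermatogonial libraries and 28.5 to 314 RPKM in the 5 spermatid libraries, with 4 of 6 and 2 to 4 of 6 genes at 1 RPKM or more. The peritubular and stromal list was highest, at 819 RPKM, in the spermatogonia of mouse 648, which also had the highest Tuba1a, Tuba1b and Tubb5 of any sorted library. The part of somatic cells in these differences was not tested.

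Tubb3 and Tubb6 stayed low. Tubb3 (plus strand, chr8:123411424-123422015) was at 1.38 to 4.496 RPKM in spermatogonia and 0.301 to 1.11 RPKM in spermatids, ranges that did not overlap, but the difference of −1.11 ± 0.52 did not pass (adjusted p = 0.0914). In primary spermatocytes it was at 0.318 to 0.948 RPKM in 5 libraries and at 4.07 RPKM in that of mouse 613. Tubb6, on chromosome 18, was at 2.20, 7.89, 1.52 and 12.7 RPKM in the spermatogonia of mice 178, 648, 286 and 544. It was at 0.183 to 2.28 RPKM in 5 of 6 primary spermatocyte libraries and at 6.99 RPKM in that of mouse 613, and the difference of −1.62 ± 0.78 did not pass (adjusted p = 0.128). In spermatids it was at 11.4, 6.38 and 14.4 RPKM in mice 178, 351 and 544 but at 1.38 and 2.35 RPKM in mice 648 and 286.

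Over all members, 3 of 9 were called between primary spermatocytes and spermatogonia, 2 higher (Tuba3a and Tuba3b) and 1 lower (Tubb5), where called means an adjusted p under 0.05. Of the 19035 genes tested 31.5% were called, 16.3% higher and 15.3% lower. The median difference of the 9 members was −0.80 and that of all genes 0.08. Between spermatids and spermatogonia 3 of 9 were called, all lower (Tuba1a, Tuba1b and Tubb5), against 44.9% of all genes (23.1% lower), with medians of 0.05 and −0.01. In 4 of 9 members, Tuba1a, Tuba1b, Tubb3 and Tubb5, every spermatid library was below every spermatogonial one, as it was in 25.7% of all genes. None was called between the secondary and the primary spermatocytes (2.56% of all genes) or between spermatids and secondary spermatocytes (0.0578%) in limma, and none had an unadjusted p under 0.05 in either. The F test over the 4 stages called 5 of 9, Tuba1b, Tuba3a, Tuba3b, Tubb5 and Tubb6, against 51.8% of all genes. The share of members called between primary spermatocytes and spermatogonia was close to that of all genes.

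The scaling moved the other members but not these calls. Tuba3a, Tuba3b and Tubb5 between primary spermatocytes and spermatogonia, and Tuba1a, Tuba1b and Tubb5 between spermatids and spermatogonia, passed the test in the same direction on RPKM as deposited and with each library centred on its median. As deposited, where the median difference of all genes between primary spermatocytes and spermatogonia was −0.27, Tuba1a, Tuba1b, Tubb3 and Tubb6 were also called lower, and 9.52% of all genes were called higher and 22% lower. With centring, where that median was 0.53, the shares were 22.3% and 12%. Between spermatids and spermatogonia the medians of all genes were −0.38 as deposited, with 14.9% higher and 30% lower, and 0.48 with centring, with 28.4% higher and 16.4% lower. Tuba3a (1.75, adjusted p = 0.0167) and Tuba3b (2.24, adjusted p = 0.0183) were called higher in spermatids with centring and Tubb3 (−1.92, adjusted p = 0.0250) lower as deposited. Between secondary and primary spermatocytes the genes called as deposited were 2.85% higher and 0.194% lower, against 1.58% and 0.988% on normalized values, and none was a member.

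Libraries of 1 mouse deviated together, so the mouse was also fitted as a block. With the mouse as a random replicate block 6 of 9 members were called between primary spermatocytes and spermatogonia, against 41.5% of all genes (21.8% higher, 19.7% lower). Tuba1a (−1.89 ± 0.63, adjusted p = 0.0224), Tuba1b (−1.34 ± 0.42, adjusted p = 0.0156) and Tubb6 (−1.94 ± 0.65, adjusted p = 0.0241) were then called lower in spermatocytes beside the other 3 genes. Between spermatids and spermatogonia 5 of 9 were called with the block, against 57.2% of all genes, with Tubb3 at −1.14 ± 0.44 (adjusted p = 0.0364) and Tuba3b at 1.10 ± 0.43 (adjusted p = 0.0375) as the added genes. With the mouse as a fixed block Tuba8 (2.58 ± 0.86, adjusted p = 0.0486) and Tubb6 (2.08 ± 0.51, adjusted p = 0.0195) were called higher in secondary than in primary spermatocytes, 2 of 9 against 22.1% of all genes.

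**Figure D3:**
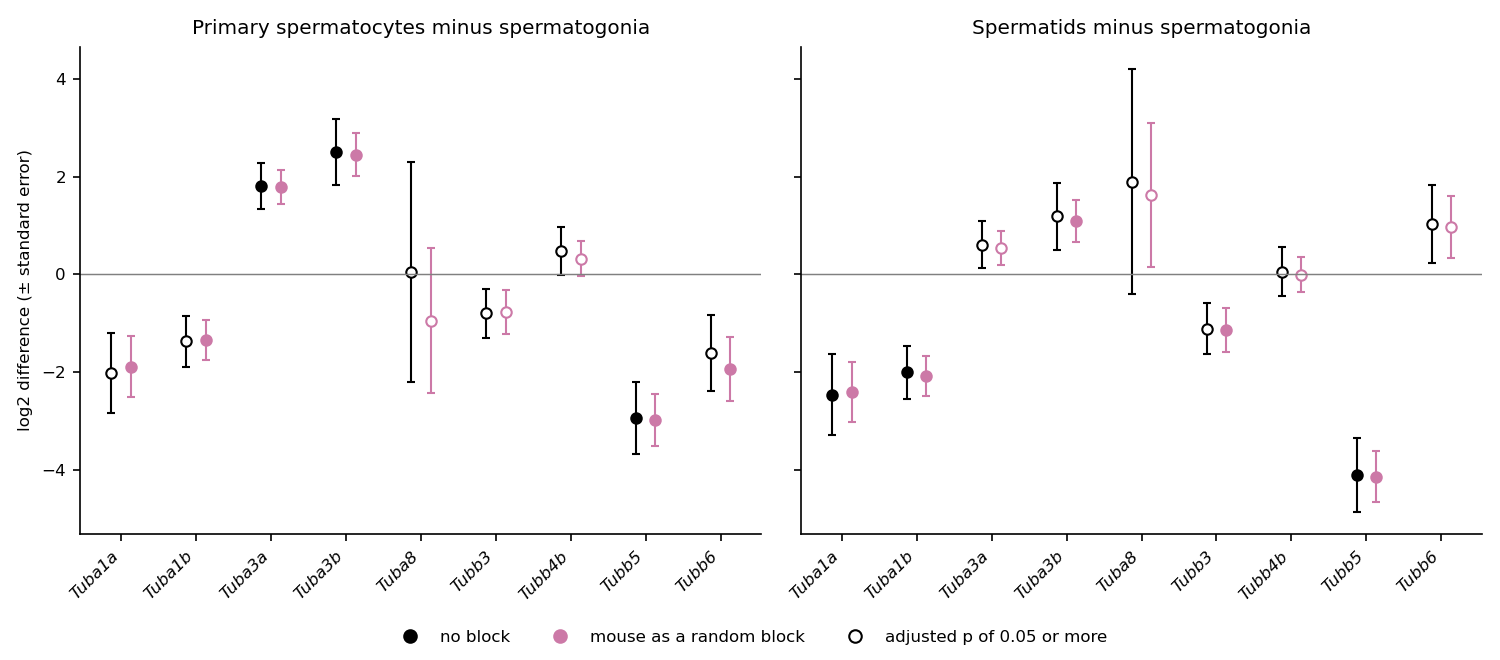
Differences in log2(RPKM + 0.1) from spermatogonia with their standard errors, for primary spermatocytes (left) and spermatids (right). Black is the fit without a block, pink the fit with the mouse as a random block, and filled points have an adjusted p under 0.05. Tuba3a and Tuba3b lie above 0 and Tubb5 below 0 in primary spermatocytes, and Tuba8 has the widest error.

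The library of mouse 613 stood apart for the low members. Without it 6 of 9 members were called between primary spermatocytes and spermatogonia, with Tuba1a at −2.56 (adjusted p = 0.0124), Tuba1b at −1.69 (adjusted p = 0.00837) and Tubb6 at −2.05 (adjusted p = 0.0480) added. Among all genes 6000 were called with every mouse and at most 7289 in any fit without 1 mouse. This library also held 50.02 RPKM of the peritubular and stromal list, against 2.34 to 12.6 RPKM in the other primary spermatocyte libraries. Without mice 648 and 286 Tuba3b was at 2.05 and Tuba3a at 1.67. This fit, also given for other genes and lists, keeps 1 spermatogonial library per genotype, of mice 178 and 544. That of mouse 544 held more late spermatid RNA than any spermatid library. A call lost in this fit therefore cannot be told apart from the loss of libraries.

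Tuba8 (plus strand, chr6:121210696-121226854) ranged from 0.012 to 106 RPKM. This α isotype lacks the final tyrosine codon shown above. It was at 33.9, 36.1 and 98.0 RPKM in the spermatids of mice 178, 351 and 544, and at 0.070 and 0.028 RPKM (8 and 3 reads) in those of mice 648 and 286. In secondary spermatocytes it was at 12.3, 23.2 and 24.5 RPKM in mice 178, 544 and 550 and at 0.087 and 0.13 RPKM in mice 648 and 286. In primary spermatocytes it was at 1.03 to 6.89 RPKM in 5 libraries and at 0.018 RPKM in mouse 648. These low values all belong to mice 648 and 286. Spermatogonia of mouse 544 held 106 RPKM, the highest value of any library, those of mouse 178 held 2.82 RPKM, and those of mice 648 and 286 held 0.04 and 0.012 RPKM.

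Whole testes split in the same way. Tuba8 was at 29.2, 40.5 and 49.2 RPKM in testes 178, 214 and 273 and at 0.152, 0.09, 0.044 and 0.028 RPKM in testes 648, 269, 286 and 308, so each side held wildtype and labelled knockout animals. Prm1, the protamine that packs sperm DNA, was at 603 to 1922 RPKM in the first 3 testes and at 0.439 to 1.16 RPKM in the other 4. Over all 27 testis libraries, the 11 of mice 648, 286, 269 and 308 had Prm1 at 0.094 to 2.14 RPKM. The 16 others had it at 17.8 to 2579 RPKM. Prm2, Tnp1 and Tnp2 split these libraries as Prm1 did, but Smcp and Odf1 did not. Smcp was at 578 and 464 RPKM in the spermatids of mice 648 and 286, against 26.6 RPKM in the primary spermatocytes of mouse 178. The summed late spermatid genes overlapped as well, at 8.91 to 608 RPKM in the 11 libraries and 159 to 12398 RPKM in the 16. The part of late spermatid number in the levels of Tuba8 was not tested. Sorted mice, 648 and 286 among them, were near 40 days per the methods. The labels give no age, so that of testes 214, 269, 273 and 308 is unknown and cannot be told apart from this split. The ovary held 0.919 RPKM of Tuba8 (110 reads) with Prm1 at 0. In the fit over all 20 sorted libraries no stage difference of Tuba8 passed (spermatids against spermatogonia 1.90 ± 2.31, adjusted p = 0.5258). Mice 648 and 286 are also the sorted mice with low Tuba8, so a fit without them is no test of this gene. Within mice, Tuba8 was higher in spermatids than in spermatogonia by 3.54 on the log2 scale in mouse 178, by 0.28 in mouse 648 and by 0.19 in mouse 286, and lower in mouse 544 (−0.11). It was higher in secondary than in primary spermatocytes in each of 4 mice, by 0.66 in mouse 648 and 3.21 to 4.36 in mice 178, 544 and 550.

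**Figure D4:**
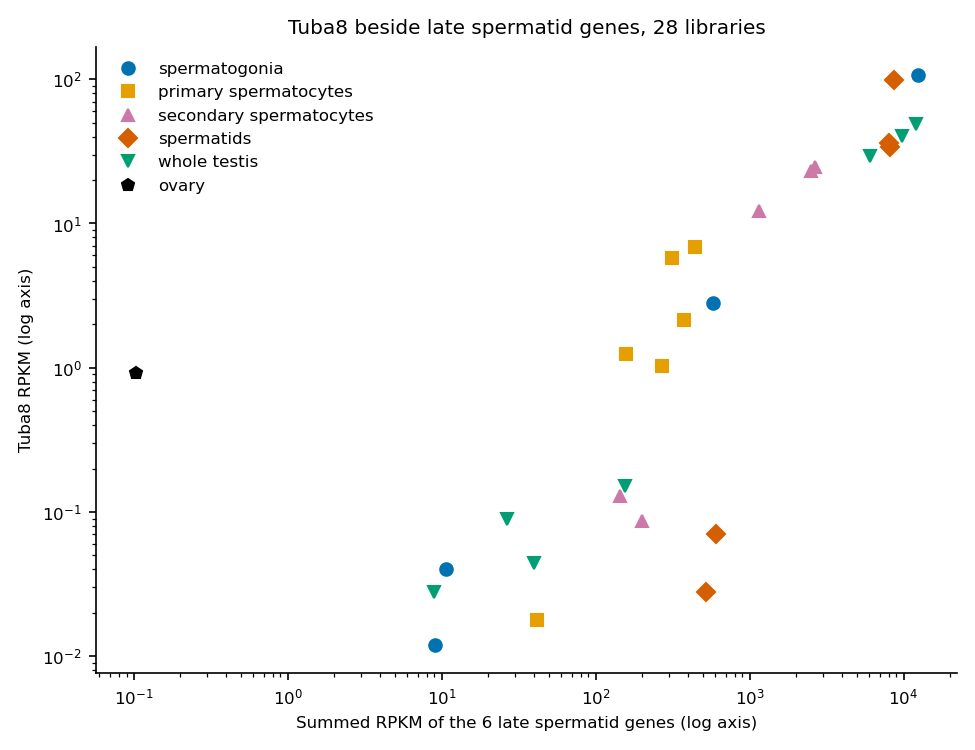
Tuba8 RPKM against the summed RPKM of the 6 late spermatid genes in all 28 libraries, both on log axes, with a symbol for each stage or tissue. Libraries with late spermatid sums of 1149 RPKM or more have Tuba8 at 12.3 RPKM or more; the spermatids of mice 648 and 286 lie at sums of 608 and 524 RPKM with Tuba8 below 0.1 RPKM.

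No member was called between labelled knockout and wildtype in sorted cells by limma. The counts were 0 of 9 in spermatogonia (0% of all genes called), primary spermatocytes (0%), secondary spermatocytes (0%) and spermatids (0.00525%), and 0 of 9 for the mean over stages (0.0105%) and the stage by genotype interaction (0%). In spermatogonia more genes were called without mouse 286, alone or with mouse 648. Both fits leave 1 labelled knockout library there, that of mouse 544 with its late spermatid RNA, so neither is a test of genotype. With all libraries, 1 member had an unadjusted p under 0.05 for the mean over stages and 1 in primary spermatocytes, Tuba3a in both, and 0 in the other 4 comparisons. Tuba3a was 0.93 ± 0.33 higher in labelled knockout over the mean of stages (adjusted p = 0.699), with 1.49 ± 0.62 in primary spermatocytes (adjusted p = 0.801), where wildtype was at 286 and 1077 RPKM and labelled knockout at 661 to 1629 RPKM. When mouse 648 was left out the mean over stages was 0.23. For Tubb4b it was 0.60 ± 0.34 (adjusted p = 0.699) and −0.01 without mouse 648.

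In whole testes, which may differ in age, Tuba3a, Tuba3b and Tubb4b were higher in each of 5 labelled knockout than in both wildtype animals. Tuba3a was at 259 and 205 RPKM in wildtype testes 178 and 648 and at 687, 586, 848, 869 and 528 RPKM in testes 214, 269, 273, 286 and 308. Tuba3b was at 264 and 114 RPKM in wildtype and at 654, 609, 943, 898 and 457 RPKM in labelled knockout. Tubb4b was at 303 and 217 RPKM in wildtype and at 708, 550, 743, 596 and 530 RPKM in labelled knockout. The ranges did not overlap for these 3 of 9 members, nor for 15.9% of all genes higher in labelled knockout and 0.778% lower, so values as deposited were higher across many genes (median shift 0.39 on the log2 scale). On quantile-normalized values, limma placed Tuba3a 1.01 ± 0.39 higher (adjusted p = 0.999), Tuba3b 1.39 ± 0.51 (adjusted p = 0.999) and Tubb4b 0.70 ± 0.38 (adjusted p = 0.999), and called 0 of 9 members and 0% of all genes. Of the 9, 2 had an unadjusted p under 0.05, Tuba3a and Tuba3b. Without testis 648, which also leaves 1 set of transcripts without a value, these differences were 0.48 and 0.46 and that of Tubb4b 0.10. On values as deposited they were 1.58 ± 0.37 and 1.99 ± 0.46 (adjusted p = 0.312 for both).

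The highest whole-testis levels of Tubb3, Tubb5 and Tuba1b were in testes 269, 286 and 308, 3 of the 4 with little late spermatid RNA. Tubb3 was at 13.7, 9.9 and 14.9 RPKM in testes 269, 286 and 308 and at 2.24 to 4.82 RPKM in the other 4. Tubb5 was at 91.8, 55.5 and 180 RPKM in the same 3 testes and at 16.6 to 45.3 RPKM elsewhere. Tuba1b stood at 51.3 to 99.0 RPKM in these 3 and at 21.2 to 31.6 RPKM in the others, and Tuba1a at 25.7 to 53.5 and 9.25 to 22.7 RPKM. The Sertoli list was at 822 to 1956 RPKM in these 3 testes and at 344 to 791 RPKM in the other 4. The part of Sertoli cells or of genotype in these levels was not tested.

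Between the ovary and the testis 6 of the 9 members stood at least 2-fold beyond all 7 testes. With 1 ovary there is no replicate check of these differences. Tubb5 was at 1046 RPKM in the ovary against 16.6 to 180 RPKM in testes, Tuba1b at 291 against 21.2 to 99.0 RPKM, Tuba1a at 229 against 9.25 to 53.5 RPKM, and Tubb6 at 19.3 against 0.927 to 4.80 RPKM. These 4 were 5.81, 2.94, 4.28 and 4.01 times the highest testis. Tuba3a at 1.05 RPKM (84 reads) and Tuba3b at 0.085 RPKM (8 reads) in the ovary stood against 205 to 869 and 114 to 943 RPKM in testes. Among 25159 genes 29.7% were higher and 11.6% lower in the ovary by this rule. Tuba8, Tubb3 (6.57 RPKM) and Tubb4b (268 RPKM) in the ovary lay within the range of the testes. All 6 ovary genes (Zp3, Gdf9, Foxl2, Inha, Cyp19a1 and Nlrp5) were at 1 RPKM or more in the ovary library.

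**Figure D5:**
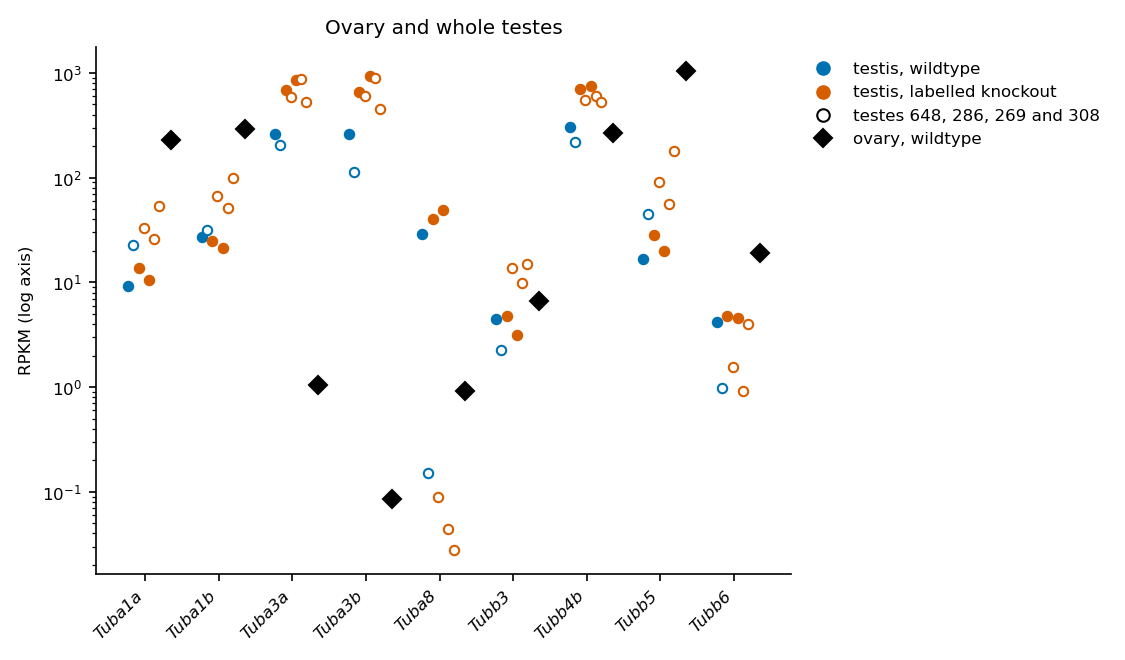
RPKM (log axis) of each member in the 7 whole testes (circles; blue wildtype, orange labelled knockout, open for testes 648, 286, 269 and 308) and the ovary (diamonds). Tuba3a and Tuba3b in the ovary lie below all testes, Tubb5 at 1046 RPKM lies above them, and Tuba8 splits the testes at 0.152 and 29.2 RPKM.

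Of 11 other tubulin genes 9 could be tested, and Tubb1 and Tubb4a, at 0 to 0.188 RPKM in sorted cells, could not. Between primary spermatocytes and spermatogonia 3 of 9 were called, against 31.5% of all genes: Tubd1, a δ-tubulin of centrioles, was higher by 1.84 ± 0.60 (adjusted p = 0.0273), and Tubg2, a γ-tubulin of nucleation sites (−2.17 ± 0.60, adjusted p = 0.0118), and the β gene Tubb2a (−1.59 ± 0.55, adjusted p = 0.0355) were lower. Tube1, an ε-tubulin of centrioles, fell by 1.65 from primary to secondary spermatocytes (adjusted p = 0.0426). In spermatids against spermatogonia 3 of 9 were called, against 44.9% of all genes. Tubd1 (1.94, adjusted p = 0.0166) and the α-like gene Tubal3 (1.92, adjusted p = 0.00415) were higher and Tubg1 (−1.71, adjusted p = 0.0385) was lower. Tubal3 stayed at or below 0.621 RPKM. Tuba1c and Tuba4a had no call, and Tubb2b, at 0.1 to 1.18 RPKM, had none either. Tuba4a, an α gene, divided the same mice as Tuba8 in spermatids and whole testes. In primary spermatocytes it did not, with 0 RPKM in mouse 613 and 0.42 RPKM in mouse 648. It was at 41.3, 31.1 and 55.6 RPKM in the spermatids of mice 178, 351 and 544 and at 1.84 and 3.74 RPKM in those of mice 648 and 286. In whole testes it was at 28.2, 38.8 and 36.3 RPKM in 178, 214 and 273 and at 0.98 to 2.65 RPKM in the other 4. Tubb2a divided the same spermatids, at 1.91 to 3.57 against 0.49 and 1.525 RPKM. It also divided the same testes, at 1.16 to 2.52 against 0.297 to 1.05 RPKM. Tuba1c (7.13 to 10.6 against 0.324 and 1.83 RPKM) and Tubg1 (8.66 to 20.6 against 3.37 and 4.03 RPKM) divided the spermatids. The fit without mice 648 and 286 keeps 1 spermatogonial library per genotype, so it is no check of the calls of these genes.

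Many enzymes that modify tubulin, most of them acting on its tail, were higher in spermatids than in spermatogonia. Of 28 such genes 20 were called between spermatids and spermatogonia, 17 higher and 3 lower, with a median difference of 1.51, against 44.9% and −0.01 over all genes. The glycylase genes Ttll8 (4.48 ± 1.02, adjusted p = 0.00241), Ttll3 (4.395 ± 0.90, adjusted p = 0.00128) and Ttll10 (4.11 ± 0.97, adjusted p = 0.00309) were higher, and Hdac6, a tubulin deacetylase, was lower (−4.21 ± 0.67, adjusted p = 0.000293). Between primary spermatocytes and spermatogonia 12 of 28 were called (31.5% of all genes), 10 higher and 2 lower. Agbl4 (2.33, adjusted p = 0.00489) and Agbl2 (2.15, adjusted p = 0.00616), carboxypeptidases that trim glutamate or tyrosine, were higher. Hdac6 (−3.91, adjusted p = 0.000788) and Ttll12 (−2.77, adjusted p = 0.00682) were lower. Ttll7, a polyglutamylase of β-tubulin, was the 1 gene called between secondary and primary spermatocytes (2.92, adjusted p = 0.0264). Leaving these 2 mice (648 and 286) out, 11 of 28 were called in spermatids and 3 of 28 in primary spermatocytes, against 21.6% and 9.50% of all genes.

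Genes for tubulin folding, the CCT chaperonin, prefoldin and the tubulin cofactors, were called in both directions. Of 22, 5 were called in primary spermatocytes (3 higher, 2 lower), against 31.5% of all genes, and 5 in spermatids (2 higher, 3 lower), against 44.9%. Cct6b, the testis form of a CCT subunit, was higher in both (2.28, adjusted p = 0.00236, and 2.26, adjusted p = 0.00159), as was Tbcc, the cofactor C gene (1.501, adjusted p = 0.00754, and 2.04, adjusted p = 0.000780). Lower genes were Vbp1, a prefoldin subunit (−2.74, adjusted p = 0.00957), and the cofactor E gene Tbce (−1.62, adjusted p = 0.0188) in primary spermatocytes, and the prefoldin genes Pfdn2 (−3.03, adjusted p = 0.000621) and Pfdn4 (−2.08, adjusted p = 0.00529) in spermatids. In the fit without mice 648 and 286, 1 and 2 of 22 were called, against 9.50% and 21.6% of all genes.

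Of 11 tested genes for severing and destabilizing microtubules, 3 were called in primary spermatocytes (31.5% of all genes), all higher, among them Katnal2 by 1.73 (adjusted p = 0.00426) and Katnal1 by 1.66 (adjusted p = 0.00676), which encode katanin-like severing ATPases. In spermatids 5 of 11 were called (44.9% of all genes), 3 higher and 2 lower. Katnal2 (1.91, adjusted p = 0.00159) and Katnal1 (1.69, adjusted p = 0.00439) were among those higher, and Fignl1, a fidgetin-like ATPase, was lower (−2.32, adjusted p = 0.00207). When mice 648 and 286 were left out, 0 of 9 tested were called in primary spermatocytes, with 2 at an unadjusted p under 0.05, and 3 of 9 in spermatids, against 9.50% and 21.6% of all genes. Between genotypes limma called 0 genes of these 4 lists in any sorted stage, over the mean of stages or in whole testis, with 0 to 4 per list at an unadjusted p under 0.05.

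Across the 20 sorted libraries the genes most like each member, by Pearson r of normalized log2 values, are given as a description over libraries that share mice and gates. For Tuba8 they were Spata31d1b (r = 0.99), Prss37 (0.99) and the testis kinase gene Tssk6 (0.99), for Tuba3b Abhd8 (0.96), Dtymk (0.96) and Selenow (0.96), and for Tuba3a Wdr18 (0.95), Rnf187 (0.94) and Ccar2 (0.93). Tubb4b was most like the elongation factor gene Eef2 (0.94), Elob (0.94) and Chmp1a (0.93). Tuba1a was most like Cited2 (0.97), Sod3 (0.95) and Adamts5 (0.95). For Tuba1b the genes were Tcf21 (0.94), Rims4 (0.93) and the proteasome gene Psma7 (0.93), and for Tubb5 the cyclin gene Ccnd2 (0.95), Trim25 (0.94) and Psma7 (0.94). Tubb3 (Arhgap31 at 0.87, Fxyd6 at 0.85 and Inha at 0.83) and Tubb6 (Arhgef6 at 0.91, Phactr1 at 0.90 and Acot9 at 0.90) had the lowest values. Among the members, Tuba1b followed Tubb5 (0.90) and Tubb4b followed Tuba3b (0.85) and Tuba3a (0.83).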

How the data were processed

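Polyadenylated RNA of 28 libraries from 13 mice was sequenced in pairs, and the authors aligned reads with TopHat2 to Ensembl transcripts and deposited RPKM per transcript, with the strand setting not given in the sources used here. Of 94480 transcripts 90339 (95.6%) matched GENCODE M21 and were summed to 37122 genes, with missing values taken as 0. Low values fell within 0.06 of whole reads for 93.1% to 94.6% of them in 27 libraries (12% by chance), which gave the depths. The study's methods also name PEER factors, quantile normalization and poissonSeq. Here limma 3.58.1 (R 4.3.3) was fitted to quantile-normalized log2(RPKM + 0.1) over 8 stage and genotype groups, with stage differences averaged over genotypes and Benjamini-Hochberg adjustment over the 19035 sorted or 22763 testis genes with a mean of at least 0.1 RPKM. On simulated data 100% of 200 genes changed by 3 (log2) were called in both models, with 8 and 14 false calls. Libraries of 1 mouse deviated together (median r 0.55 over 22 pairs, from −0.32 to 0.76, against −0.04 for 151 pairs of other mice), and the mouse numbers in the labels mark 1 animal. Replicates are mice. Named were all members, and per other list and comparison up to 4 called genes of largest difference. The members and lists were chosen with earlier results of these data known. Some sequences and 1 listed gene are not reported here.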

Additional observations from a re-analysis of the deposited data

Results flagged for a closer look

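Among 18 groups of 4 or more libraries checked, where chance marks about 1 in 20, 2 had a library far from the others, both the primary spermatocytes of mouse 613. Tuba1a was at 17.5 RPKM there against 0.961 to 2.12 RPKM in the other 3 labelled knockout libraries of that gate, and Tubb3 was at 4.07 RPKM against 0.318 to 0.948 RPKM. The peritubular and stromal genes of this library summed to 50.02 RPKM against 4.33 to 6.74 RPKM in those 3, and its values showed no whole-read step. The part of either in the 2 levels was not tested.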

How the results depend on the processing

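Of the counts of members called under alternatives, 214 stayed within 1.5 times and 21 did not, and of the single-member values 1003 kept direction and call, 33 passed the test, 14 no longer passed it, 59 changed sign and 2 moved. No cause was tested. Between primary spermatocytes and spermatogonia 3 members were called, but 7 on RPKM as deposited, 6 with the mouse as a fixed or random replicate block, 1 without mice 648 and 286 (an alternative chosen after seeing the data) and 2 to 6 without 1 mouse (6 without 613). Between spermatids and spermatogonia it was 3, but 5 with libraries centred on their medians or either block and 1 to 4 without 1 mouse (1 without 648). The F test called 5, but 3 with the highest transcript, no filter, wildtype libraries only or without both mice, and 1 to 6 without 1 mouse (2 without 178, 286 or 550, 3 without 648, 1 without 544). Between secondary and primary spermatocytes it was 0, but 2 with the fixed block and 1 without both mice, and between genotypes in spermatogonia 0, but 1 without both mice (Tuba8 each time without both mice, which are the sorted mice with low Tuba8, so that neither is a test). The block changed no other count of members by over 1.5 times. In these 3 results the number of all genes called also changed when 1 mouse was left out. A changed count of members is therefore by itself no result about the members. Over all genes, the count between primary spermatocytes and spermatogonia fell from 6000 to 1807 without both mice, between spermatids and spermatogonia from 8548 to 4118 and in the F test from 9862 to 5687. Between secondary and primary spermatocytes 488 genes became 4199 with the fixed and 3655 with the random block, and for the mean genotype difference 2 became 922 without mouse 286, none of them a member, and in spermatogonia 0 became 1353 without mouse 286 and 344 without both mice.

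Sign changes were all in differences that did not pass the test. On RPKM as deposited they were Tuba1b (0.60) and Tubb6 (0.36) between testes, Tubb3 (0.28) and Tubb5 (0.18) in the mean genotype difference, and Tuba8 (−0.40) from spermatogonia to primary spermatocytes. With centring they were Tuba1b between testes (0.086) and, from secondary spermatocytes to spermatids, Tuba3a (0.19), Tuba3b (0.084) and Tubb4b (0.40). With the highest transcript they were Tuba1b between testes (0.49), Tubb5 between genotypes (0.10) and Tubb4b from spermatogonia to spermatids (−0.055). With the fixed block they were Tuba8 in primary spermatocytes (−2.12), Tubb4b from primary to secondary spermatocytes (0.035) and from spermatogonia to spermatids (−0.091), and with the random block Tuba8 (−0.95), Tubb4b (−0.0044) and Tubb5 between genotypes (0.11). Without both mice Tuba8 was at −2.26 and Tubb4b at −0.14, with a pseudocount of 1 Tuba8 at −0.52, and in wildtype only Tubb4b at 0.15 from primary to secondary spermatocytes. The ovary differences of Tuba3a and Tuba3b were −8.16 and −9.14 at a pseudocount of 1.

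Without 1 mouse at a time the mean genotype difference ran from −0.63 to 0.059 for Tuba1b, −0.13 to 2.02 for Tuba3b, −1.09 to 4.31 for Tuba8, −0.21 to 0.092 for Tubb3, −0.0055 to 1.12 for Tubb4b, −0.58 to 0.498 for Tubb5 and −0.32 to 1.25 for Tubb6. In whole testes it ran from −0.42 to 0.49 for Tuba1a, −0.31 to 0.25 for Tuba1b, −4.98 to 2.02 for Tuba8, −0.10 to 0.85 for Tubb5 and −1.30 to 0.71 for Tubb6. From secondary spermatocytes to spermatids it ran from −0.63 to 0.15 for Tuba3a, −0.85 to 0.16 for Tuba3b, −0.95 to 2.11 for Tuba8 and −0.42 to 0.15 for Tubb4b. Tubb3 (−0.10 to 0.87) and Tubb5 (−0.059 to 0.60) changed sign from primary to secondary spermatocytes, Tuba8 (−2.23 to 2.49) in primary spermatocytes and Tubb4b (−0.091 to 0.45) in spermatids against spermatogonia. With groups of 2 to 4 libraries, a lone remaining library was assumed to vary like the others. Without mouse 286 the labelled knockout spermatogonia were the library of mouse 544 alone, which held more late spermatid RNA than any spermatid library. The rise in genes called between genotypes without mouse 286 is therefore no test of genotype.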
